A study of Caenorhabditis elegans with 23 samples.

Results

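The lysozyme genes described here are 10 genes of Caenorhabditis elegans (lys-1, lys-2, lys-3, lys-4, lys-7, lys-8, lys-10, ilys-2, ilys-3 and ilys-5), taken as every probe set whose annotated symbol or older name is one of them. They are 10 of the 17118 genes, and 12 of the 22548 probe sets, of the array; ilys-5 has 3 probe sets and each of the others has 1. Lysozymes cleave peptidoglycan, the polymer of the bacterial cell wall. The worm carries lys genes, related to lysozymes of amoebae, and ilys genes of the type found across invertebrates; many are secreted by the gut, where they help to digest bacterial food and act in defence against infection. In worms lys-7 is a known target of the FOXO factor DAF-16, lys-8 is a known target of the TGF-beta-like ligand DBL-1, lys-1 is raised by infection with Serratia marcescens, and ilys-3 is active against Gram-positive bacteria.

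The design sets ash-2 RNAi against empty vector (EV) in 2 genotypes and at 2 ages. Total RNA of whole worms grown at 20 degrees was read on 23 arrays in 8 groups. On day 8 these were glp-1(e2141ts) under ash-2 RNAi (3 arrays), glp-1(e2141ts) under EV (3), wild type N2 (WT) under ash-2 RNAi (3) and WT under EV (2, the authors having left out array number 3 for quality); at the L3 larval stage the same 4 combinations had 3 arrays each. The glp-1 mutation impairs the Notch receptor of germline stem cells, and ash-2 encodes a part of a methyltransferase complex that acts on lysine 4 of histone H3. Whether the glp-1 worms passed through a restrictive temperature is not stated, and neither is whether arrays of a group came from separate cultures, so p-values measure the spread between arrays, which may be technical. In whole-worm RNA fewer cells of a type and less RNA per cell cannot be told apart.

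Array medians lay between 4.89 and 5.01 on day 8 and between 5.72 and 5.91 at L3 (log2), so day 8 against L3 and a separate normalization of the 2 ages cannot be told apart. A change passed (was called) where its p from limma, adjusted over all probe sets, was under 0.05. Of the 4 ash-2 probe sets, 3 shared ones lay 4.54 to 8.29 higher (log2) in the arrays labelled ash-2 RNAi. The other changed by −1.82 on day 8 in WT, which passed. Its changes of −0.40 on day 8 in glp-1, −0.33 in L3 WT and −0.24 in L3 glp-1 did not pass. The part of these unequal ash-2 changes in responses that differ between groups was not tested. Whether the shared ones lie in the sequence cloned for RNAi is not stated, and such a probe set does not check the labels. In glp-1 worms 9 of 9 germline markers were lower than in WT at both ages under EV. Of the lysozyme probe sets 7 are shared, which means that they can bind several transcripts, and lys-2, lys-3, lys-4, lys-7 and ilys-5 are measured by shared probe sets alone, so these 5 genes are uncertain. The other 5 probe sets (lys-1, lys-8, lys-10, ilys-2 and ilys-3) are not shared. In the genome lys-1, lys-2 and lys-3 are neighbours on chromosome V, ilys-3 and ilys-2 are neighbours on chromosome IV, lys-10 lies between the histone genes his-30 and his-31, and lys-7, lys-8 and ilys-5 have no lysozyme neighbour (assembly WBcel235).

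**Figure D1:**
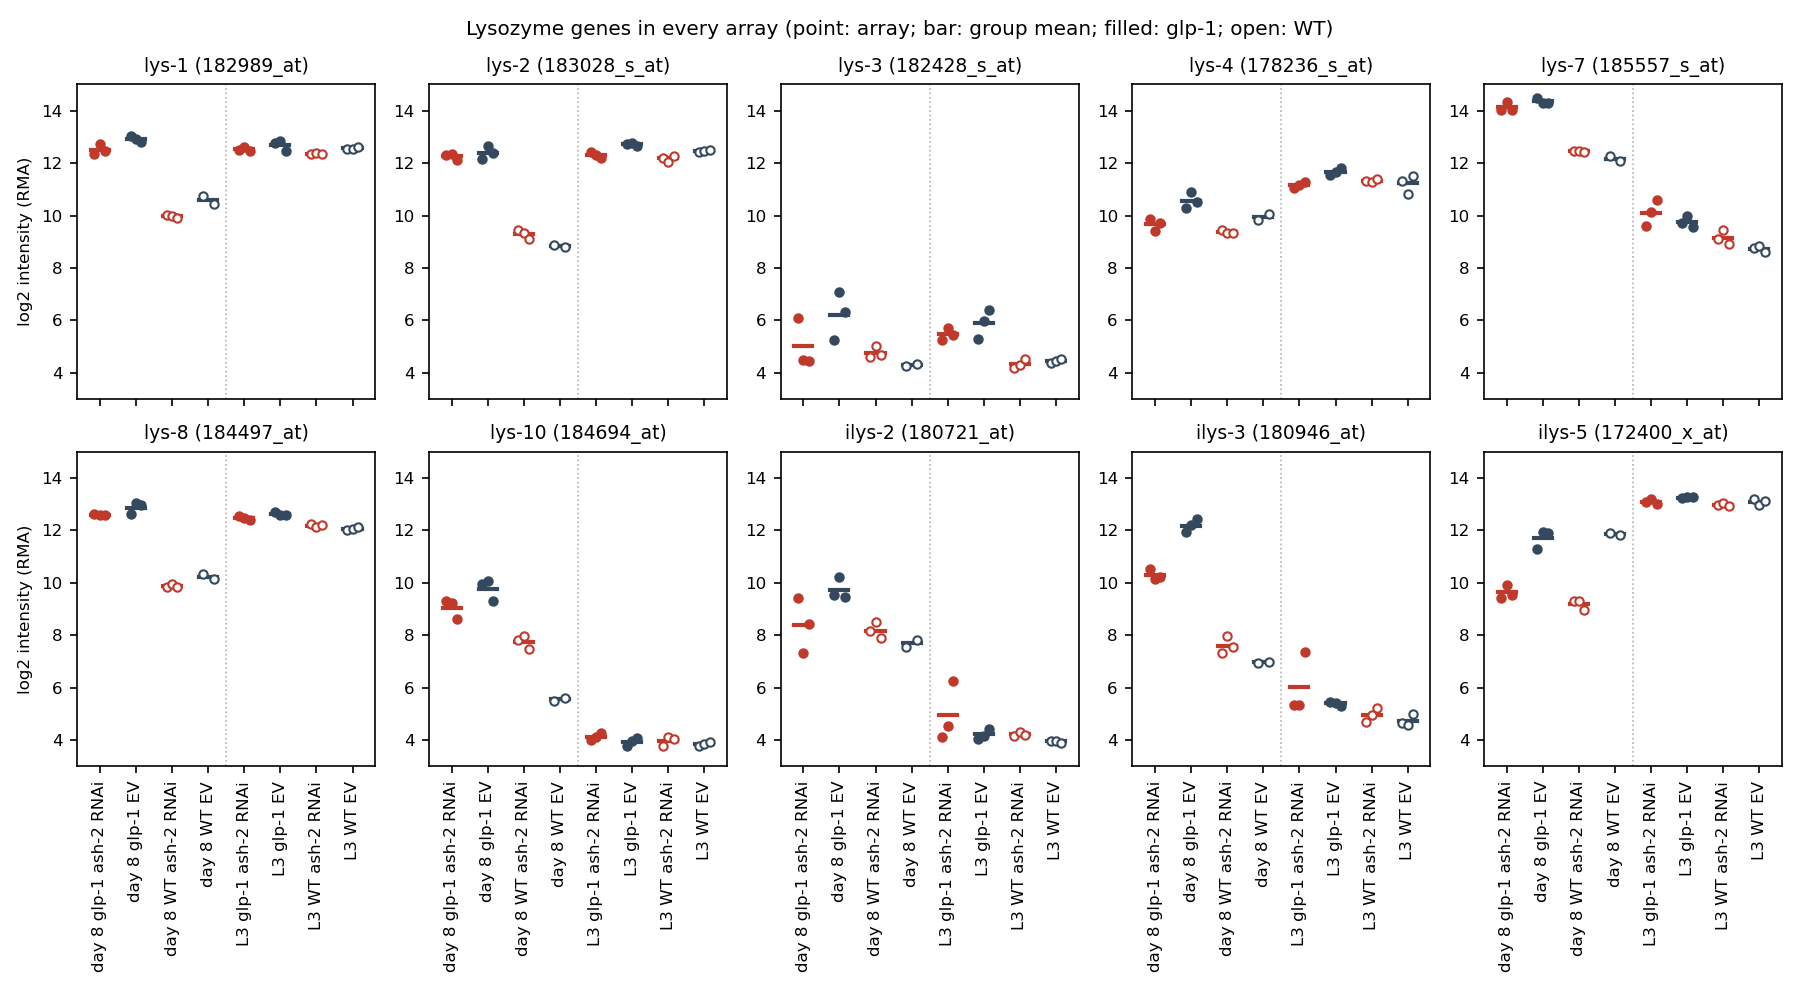
Log2 intensity (y axis) of the brightest probe set of each lysozyme gene in the 8 groups (x axis); points are arrays, bars are group means, filled points are glp-1 and open points WT, red is ash-2 RNAi and dark blue EV, and the dotted line parts day 8 from L3. On day 8 ilys-5 is low under ash-2 RNAi in both genotypes, lys-10 is raised under ash-2 RNAi in WT, and ilys-3 reaches 12.42 in glp-1 EV worms.

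On day 8 the invertebrate-type lysozyme gene ilys-5 fell with ash-2 RNAi in both genotypes. In glp-1 worms its brightest probe set, 172400_x_at, read 9.43, 9.92 and 9.55 (log2 intensity) in the ash-2 RNAi arrays, against 11.28, 11.92 and 11.89 in the EV arrays. In WT it read 9.30, 9.29 and 8.98 in the ash-2 RNAi arrays, against 11.92 and 11.81 in the EV arrays. In both genotypes every ash-2 RNAi array lay below every EV array. The change in glp-1 was −2.06 ± 0.19 (log2 change ± SE of the limma fit, n = 3 against 3, adjusted p = 5.57e-05), a 4.18-fold lower level, and that in WT was −2.67 ± 0.21 (n = 3 against 2, adjusted p = 0.000153), a 6.37-fold lower level. The other 2 ilys-5 probe sets changed by −2.15 and −2.14 in glp-1 and by −2.87 and −2.71 in WT. Over the 8 group means, centred within each age, the 3 probe sets correlated with each other at 0.994 to 0.999; they share transcripts and are not separate evidence. The genotypes' changes in ilys-5 differed by 0.56 to 0.72 (glp-1 minus WT), which did not pass (adjusted p from 0.251 to 0.364); for 172400_x_at the 95% interval of the difference ran from −0.01 to 1.23.

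The response of lys-10 to ash-2 RNAi depended on the genotype on day 8. In glp-1 worms lys-10 read 9.29, 9.23 and 8.61 in the ash-2 RNAi arrays, against 9.98, 10.05 and 9.33 in the EV arrays. In WT it read 7.81, 7.96 and 7.47 in the ash-2 RNAi arrays, against 5.50 and 5.60 in the EV arrays. The glp-1 arrays under ash-2 RNAi lay just below those under EV, whereas in WT the ash-2 RNAi arrays lay far above EV. The change in glp-1 was −0.74 ± 0.23 and missed the threshold (adjusted p = 0.0514), while in WT lys-10 rose by 2.20 ± 0.25 (adjusted p = 0.00152), a 4.58-fold higher level. The difference between the genotypes' changes was −2.94 ± 0.34 (95% interval −3.69 to −2.18, adjusted p = 0.00126). Under ash-2 RNAi lys-10 in WT still lay below its level in glp-1 worms under either treatment.

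The response of the gut lysozyme gene ilys-3 differed between the genotypes too. In glp-1 worms it read 10.55, 10.17 and 10.21 in the ash-2 RNAi arrays, against 11.93, 12.19 and 12.42 in the EV arrays. In WT it read 7.32, 7.97 and 7.55 in the ash-2 RNAi arrays, against 6.95 and 6.996 in the EV arrays. Neither pair of groups overlapped: the ash-2 RNAi arrays lay below EV in glp-1 and above EV in WT. In day 8 WT, with 2 EV arrays, no lysozyme probe set overlapped, so that singles out no gene. In glp-1 ilys-3 fell by 1.87 ± 0.18 (adjusted p = 8.33e-05), a 3.66-fold lower level; the WT change of 0.64 ± 0.20 did not pass (adjusted p = 0.244). The difference between the changes was −2.51 ± 0.27 (95% interval −3.11 to −1.91, adjusted p = 0.000839). Its neighbour ilys-2 had values of the same signs, −1.35 ± 0.42 in glp-1 (adjusted p = 0.0559) and 0.48 ± 0.47 in WT (adjusted p = 1), with a difference of −1.83 ± 0.63 that did not pass (adjusted p = 0.15).

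The lys-4 gene fell on day 8 in glp-1. It read 9.86, 9.42 and 9.73 in the ash-2 RNAi arrays, against 10.28, 10.90 and 10.51 in the EV arrays, with no overlap. The change was −0.89 ± 0.16 (adjusted p = 0.00448), and it no longer passed when arrays were centred on muscle and neuron markers (−0.73). In WT lys-4 read 9.45, 9.32 and 9.35 in the ash-2 RNAi arrays, against 9.83 and 10.07 in the EV arrays, a change of −0.57 ± 0.18 that did not pass (adjusted p = 0.256). The genotypes' changes in lys-4 differed by −0.32 ± 0.25, which did not pass (adjusted p = 0.574).

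Counted over the 12 probe sets, 0 rose and 5 fell on day 8 in glp-1 (3 of ilys-5, ilys-3 and lys-4), where 7.18% of all probe sets rose and 7.63% fell. On day 8 in WT 1 rose (lys-10) and 3 fell (all of ilys-5), where 0.577% of all probe sets rose and 0.891% fell. With the brightest probe set per gene, the median change of the 10 genes was −0.82 in glp-1, against 0.03 over all probe sets, and all 12 values were below 0, except that muscle and neuron centring put lys-2 at 0.03. In WT the median was 0.36, against 0.0054 over all probe sets, with 6 probe sets above 0 and 6 below. The 2 differences that passed between the genotypes' day 8 responses, those of lys-10 and ilys-3, were both lower in glp-1; over all probe sets 1.67% differed upwards and 2.33% downwards. No day 8 WT call was lost when 1 array was left out, and in glp-1 the 5 falls held, but the count there rose to 8 without glp-1 ash-2 RNAi replicate 1, when lys-10 (−0.87), ilys-2 (−1.86) and lys-3 (−1.73) also fell.

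**Figure D2:**
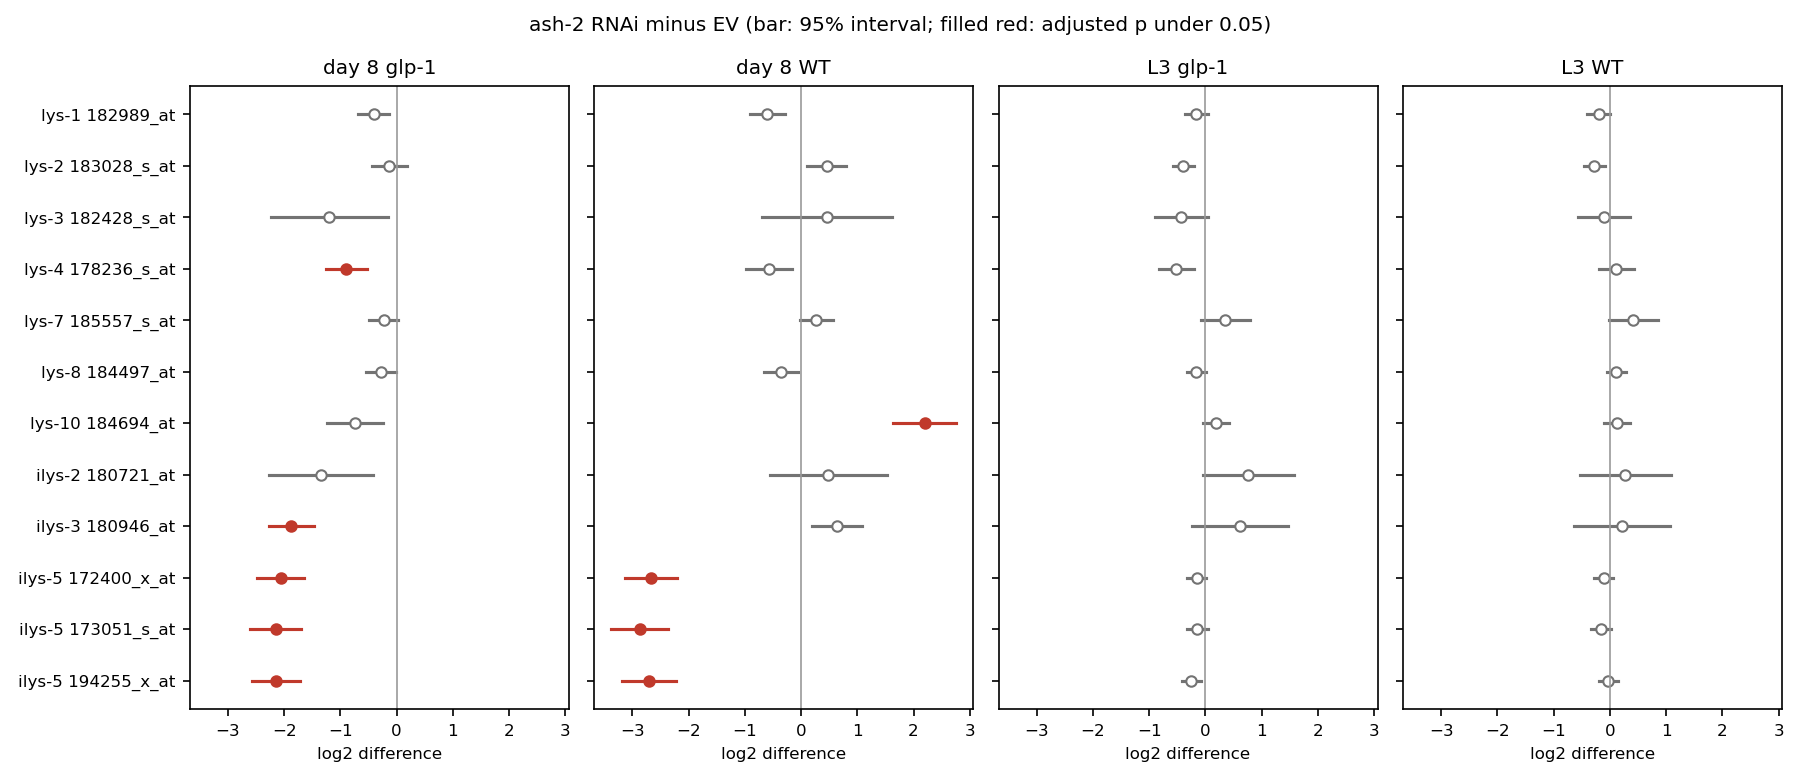
Log2 change with ash-2 RNAi (x axis, ash-2 RNAi minus EV) of the 12 lysozyme probe sets (y axis) on day 8 in glp-1 and WT and at L3 in glp-1 and WT; bars are 95% intervals and filled red points have an adjusted p under 0.05. Red points appear on day 8 alone, 5 in glp-1 and 4 in WT, each including every ilys-5 probe set. Over all probe sets 7.18% rose and 7.63% fell on day 8 in glp-1, and 0.577% rose and 0.891% fell in WT. At L3 0.501% rose and 0.297% fell in glp-1, and 0.217% rose and 0.111% fell in WT. Having 0 of 12 called at L3 is near those shares.

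Among the other lys genes no change with ash-2 RNAi passed on day 8. In glp-1 worms lys-1 read 12.34, 12.72 and 12.47 under ash-2 RNAi, against 13.03, 12.93 and 12.80 under EV, a change of −0.41 ± 0.13 (adjusted p = 0.0541). In WT lys-1 read 10.04, 9.98 and 9.92 under ash-2 RNAi, against 10.73 and 10.42 under EV, a change of −0.60 ± 0.14 (adjusted p = 0.0815). The lys-1 values were therefore lower under ash-2 RNAi in both genotypes without overlap, short of the threshold. In WT, with 2 EV arrays, 6 of the 12 lysozyme probe sets lay wholly above EV and 6 wholly below. In glp-1, 0 lay wholly above and 8 wholly below. Lack of overlap does not single out lys-1, and its share over all probe sets was not counted. The DBL-1 target lys-8 had changes of −0.28 ± 0.12 in glp-1 (adjusted p = 0.169) and −0.35 ± 0.14 in WT (adjusted p = 0.439). The DAF-16 target lys-7 had changes of −0.23 ± 0.12 in glp-1 (adjusted p = 0.234) and 0.27 ± 0.13 in WT (adjusted p = 0.697). For lys-2, the neighbour of lys-1, the changes were −0.13 ± 0.14 in glp-1 (adjusted p = 0.621) and 0.46 ± 0.16 in WT (adjusted p = 0.328). The dim gene lys-3 read 6.09, 4.50 and 4.47 in glp-1 ash-2 RNAi arrays, against 5.26, 7.07 and 6.31 in glp-1 EV arrays, so that replicate 1 stood apart in both groups. Leaving out 1 array brought lys-1 (−0.52 without glp-1 ash-2 RNAi replicate 2), lys-8 (−0.41 without glp-1 EV replicate 1), lys-3 (−1.67 without glp-1 EV replicate 1) and lys-10 (−0.97 without glp-1 EV replicate 3) past the threshold in glp-1.

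Markers of the gut, where many lysozymes are made, were lower under ash-2 RNAi in the day 8 glp-1 arrays. Of 11 intestine markers 0 rose and 7 fell there, among them nhx-2, a sodium-proton exchanger (−1.46), ifb-2, an intermediate filament of the gut (−1.16), and ges-1, a gut esterase (−1.02). Their mean level lay between 10.24 and 10.49 in the ash-2 RNAi arrays and between 10.86 and 11.10 in the EV arrays, with a median change of −0.56. The gut GATA factor elt-2 (−0.30, adjusted p = 0.266) and the proton pump subunit vha-6 (−0.02, adjusted p = 0.955) did not pass. In day 8 WT 1 of the 11 fell, the protease gene cpr-1 (−1.53), and the mean level lay between 8.12 and 8.20 in the ash-2 RNAi arrays and between 8.23 and 8.57 in the EV arrays. Elsewhere in day 8 glp-1, 1 of 10 pharynx, 1 of 6 epidermis and 2 of 11 neuron markers fell and 3 of 9 germline markers rose; in day 8 WT 3 of 9 body wall muscle markers rose. The part of these markers in the lysozyme changes was not tested.

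**Figure D3:**
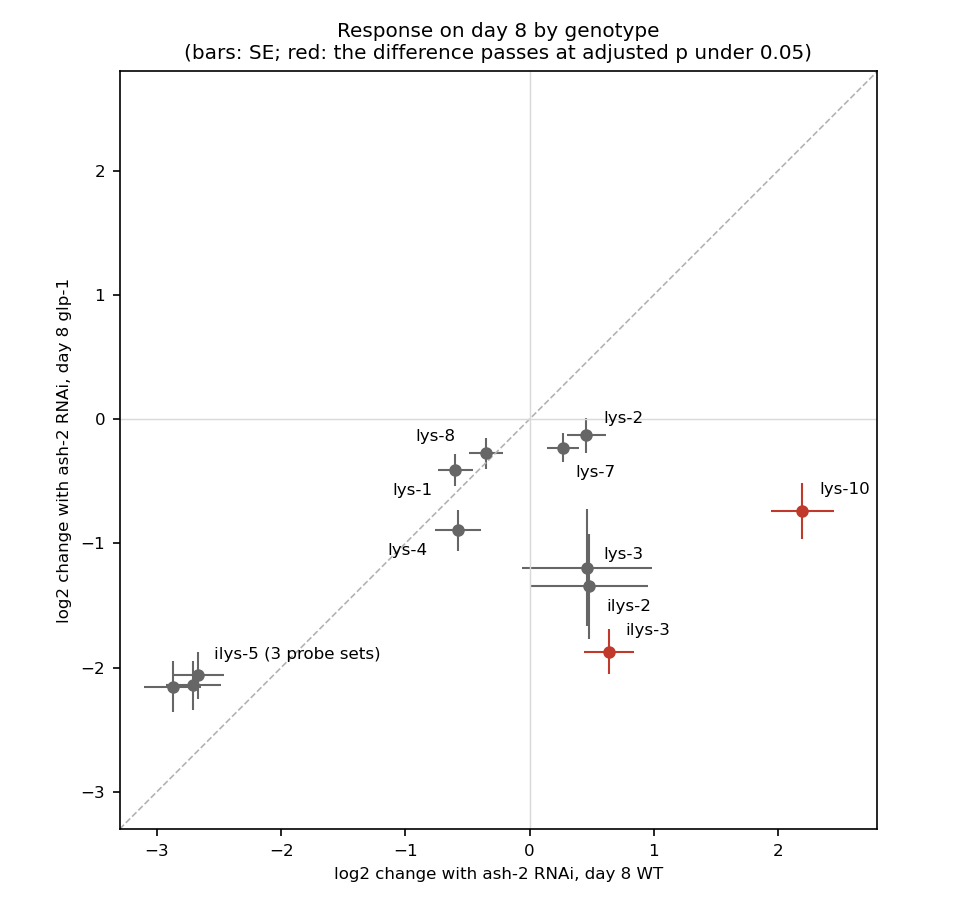
Log2 change with ash-2 RNAi on day 8 in glp-1 (y axis) against that in WT (x axis) for the 12 lysozyme probe sets; bars are SE, the dashed line marks equal changes, and red marks a difference with an adjusted p under 0.05. lys-10 (−0.74 in glp-1, 2.20 in WT) and ilys-3 (−1.87 in glp-1, 0.64 in WT) lie off the line, and ilys-5 is low on both axes.

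At L3 ash-2 RNAi moved no lysozyme probe set past the threshold in either genotype in the main fit, which was not paired by replicate number. In glp-1 limma called 0 of 12, where 0.501% of all probe sets rose and 0.297% fell. In WT it called 0 of 12, where 0.217% of all probe sets rose and 0.111% fell. At the looser threshold of an unadjusted p under 0.05 there were 3 in glp-1 and 1 in WT. The share of all probe sets at that threshold was not counted. The smallest adjusted p in each genotype belonged to lys-2. In L3 glp-1 worms lys-2 read 12.43, 12.33 and 12.20 under ash-2 RNAi, against 12.72, 12.78 and 12.64 under EV, a change of −0.40 ± 0.09 (adjusted p = 0.0573). In L3 WT lys-2 read 12.21, 12.06 and 12.27 under ash-2 RNAi, against 12.42, 12.45 and 12.51 under EV, a change of −0.28 ± 0.09 (adjusted p = 0.376). The lys-2 groups did not overlap in either genotype, which was not particular to lys-2. Of the 12 probe sets, 0 lay wholly above EV and 5 wholly below in glp-1. In WT 2 lay wholly above and 3 wholly below. The share over all probe sets was not counted. Its fall in glp-1 passed without ash-2 RNAi replicate 1 (−0.45), when the count was 1. Median centring also gave 1, and trend and robust settings gave 2 (lys-2 and ilys-5 probe set 194255_x_at).

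Of the genes that changed on day 8, lys-4 was also lower at L3 in glp-1, without passing. It read 11.05, 11.16 and 11.26 under ash-2 RNAi, against 11.56, 11.65 and 11.82 under EV, with no overlap and a change of −0.52 ± 0.14 (adjusted p = 0.136). ilys-5 (172400_x_at) read 13.07, 13.19 and 13.01 in L3 glp-1 ash-2 RNAi arrays, against 13.23, 13.26 and 13.26 in EV arrays, a change of −0.16 with a 95% interval from −0.33 to 0.01. In L3 WT it read 12.98, 13.05 and 12.93 under ash-2 RNAi, against 13.19, 12.99 and 13.12 under EV, a change of −0.11 with an interval from −0.28 to 0.06. Both ilys-5 intervals leave out a change of the size seen on day 8. lys-10 lay between 3.78 and 4.27 in all 12 L3 arrays, among the dimmest probe sets, and its changes of 0.19 in glp-1 and 0.12 in WT did not pass (adjusted p = 0.527 in glp-1 and 0.968 in WT). In L3 glp-1 ash-2 RNAi replicate 3 stood apart for both ilys genes of the chromosome IV pair. It read 7.37 for ilys-3, where replicates 1 and 2 read 5.32 and 5.34, and 6.27 for ilys-2, where they read 4.13 and 4.53. For lys-7 the L3 WT arrays read 9.10, 9.46 and 8.92 under ash-2 RNAi, against 8.75, 8.84 and 8.62 under EV, a change of 0.42 ± 0.20 (adjusted p = 0.76). In a fit of those 6 arrays alone, blocked by replicate number and added after seeing the data, lys-7 passed, which made the count in L3 WT 1.

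Differences between the ages in the response were tested directly. In glp-1 the difference (day 8 change less the L3 change) was −1.90, −2.01 and −1.89 for the ilys-5 probe sets (largest adjusted p = 5.72e-06), −2.48 ± 0.49 for ilys-3 (adjusted p = 0.00223), −2.11 ± 0.61 for ilys-2 (adjusted p = 0.0331) and −0.93 ± 0.26 for lys-10 (adjusted p = 0.0257). At L3 in glp-1 under EV lys-10 (3.78 to 4.09) and ilys-2 (4.05 to 4.44) were among the dimmest probe sets, so a fall could hardly show there and their age differences may only restate the day 8 values. In the same arrays ilys-3 (5.29 to 5.47) was dim too, and a fall of its day 8 size could hardly show. These 6 probe sets were called downwards and 0 upwards, where 4.18% of all probe sets were called upwards and 5.55% downwards. In WT the difference was −2.56, −2.71 and −2.67 for ilys-5 (largest adjusted p = 1.25e-06), 2.07 ± 0.27 for lys-10 (adjusted p = 0.000247) and 0.73 ± 0.17 for lys-2 (adjusted p = 0.0332). These were 2 calls upwards and 3 downwards, where 0.537% of all probe sets were called upwards and 1.01% downwards. Quantile normalization gave 1 call upwards and 3 downwards in WT. The calls of lys-2 in WT and of lys-10 and ilys-2 in glp-1 were lost without single arrays, listed in the closing section, and with muscle and neuron centring (0.54, −0.75 and −1.93); those of ilys-5, of ilys-3 in glp-1 and of lys-10 in WT were not lost under either. The response to ash-2 RNAi at L3 differed between the genotypes for 0 of 12 probe sets by limma (smallest adjusted p = 0.464). Over all probe sets 0% were called upwards and 0% downwards. At an unadjusted p under 0.05 there were 2 of the 12, and the share of all probe sets at that looser threshold was not counted.

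Under EV most lysozyme genes were higher in glp-1 than in WT worms on day 8, by the most for ilys-3 among the 12 probe sets. ilys-3 read 11.93, 12.19 and 12.42 in glp-1 EV arrays, against 6.95 and 6.996 in WT EV arrays, a difference of 5.21 ± 0.20 (adjusted p = 1.9e-09). lys-10 read 9.98, 10.05 and 9.33 in glp-1, against 5.50 and 5.60 in WT, a difference of 4.23 ± 0.25 (adjusted p = 4.94e-08). lys-2 read 12.16, 12.66 and 12.37 in glp-1, against 8.86 and 8.80 in WT, a difference of 3.57 ± 0.16 (adjusted p = 4.94e-09). None of these 3 genes overlapped between the genotypes. lys-8 (2.63 ± 0.14), lys-1 (2.34 ± 0.14), lys-7 (2.18 ± 0.13), ilys-2 (2.05 ± 0.47), lys-3 (1.91 ± 0.52) and lys-4 (0.62 ± 0.18) were higher as well (largest adjusted p = 0.0136). The lys-7 probe set had the highest value of all probe sets on 1 day 8 glp-1 EV array, where it read 14.50, and ranked 5 and 2 on the others; whether its signal was near saturation was not tested. The difference of ilys-5 did not pass (−0.17 ± 0.21, 95% interval −0.63 to 0.30, adjusted p = 0.555 for 172400_x_at), reading 11.28, 11.92 and 11.89 in glp-1 against 11.92 and 11.81 in WT.

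Under ash-2 RNAi on day 8, 7 of the 12 probe sets were higher and 0 lower in glp-1, where 28.2% of all were higher and 25.4% lower. Under EV, 9 were higher and 0 lower, where 28.3% of all probe sets were higher and 26.6% lower. The 7 under ash-2 RNAi were lys-2 (2.98), lys-8 (2.71), ilys-3 (2.70), lys-1 (2.53), lys-7 (1.68), lys-10 (1.30) and ilys-5 probe set 173051_s_at (0.61 ± 0.20, adjusted p = 0.0247). The call of 173051_s_at was lost without glp-1 ash-2 RNAi replicate 2 (0.46) and without WT ash-2 RNAi replicates 2 (0.64) and 3 (0.49), and the other ilys-5 probe sets did not pass, though 172400_x_at did without glp-1 ash-2 RNAi replicate 1 (0.55). That of lys-4 under EV was lost without WT EV replicate 1 (0.50). The median difference of the 10 genes was 1.49 under ash-2 RNAi, against 0.07 over all probe sets, and 2.26 under EV, against 0.04 over all probe sets.

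Intestine, muscle and neuron markers were mostly higher in glp-1 as well. On day 8 under EV 11 of 11 intestine markers were higher (median 3.24), as were 9 of 9 body wall muscle markers (2.24) and 9 of 11 neuron markers (2.58), while the 9 germline markers were lower (−5.16). Of 10 pharynx markers 4 were higher and 1, phat-1, was lower (median 0.96), and of 6 epidermis markers 3 were higher and 0 lower (median 0.56). Centring each array on the muscle and neuron markers moved the median of all probe sets by −2.05 in this comparison. With it ilys-3 (3.16), lys-10 (2.19), lys-2 (1.52) and lys-8 (0.59) were still higher, lys-4 (−1.43) and the ilys-5 probe sets (−2.21, −2.15 and −2.31) were lower, and lys-1, lys-7, lys-3 and ilys-2 did not pass, giving 4 higher and 4 lower. Under ash-2 RNAi that centring, with a median shift of −1.67, resulted in 4 higher (lys-2, lys-8, ilys-3 and lys-1) and 6 lower (lys-3, lys-4, ilys-2 and the 3 of ilys-5). The part of tissue proportions in these differences was not tested.

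**Figure D4:**
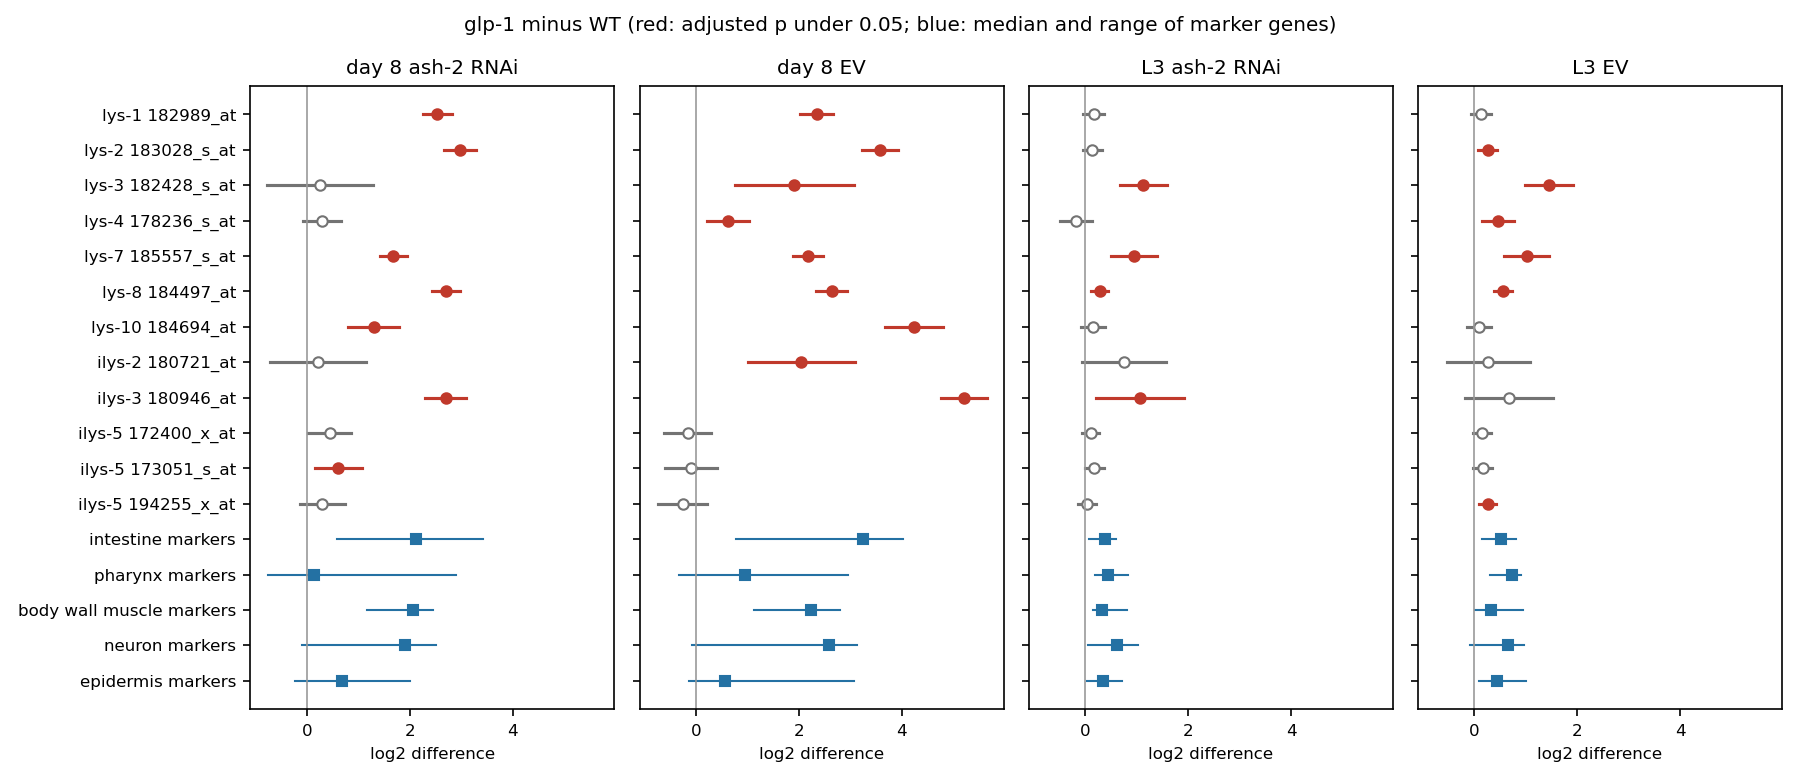
Log2 difference between glp-1 and WT (x axis, glp-1 minus WT) of the 12 lysozyme probe sets under ash-2 RNAi and EV on day 8 and at L3; bars are 95% intervals, filled red points have an adjusted p under 0.05, and blue squares and lines are the median and range of marker genes. On day 8 under EV 9 probe sets are higher in glp-1, where 28.3% of all probe sets are higher, and ilys-5 is near 0. With centring on muscle and neuron markers 4 are higher and 4, those of lys-4 and ilys-5, are lower.

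At L3 fewer lysozyme probe sets differed between the genotypes than on day 8. Under ash-2 RNAi 4 of 12 probe sets were higher in glp-1 and 0 lower, where 28.1% of all were higher and 20.8% lower; they were lys-3 (1.13 ± 0.22), ilys-3 (1.06 ± 0.40, adjusted p = 0.0398), lys-7 (0.95 ± 0.20) and lys-8 (0.28 ± 0.08). Not every difference was smaller than on day 8: under ash-2 RNAi the day 8 values of lys-3 and ilys-2 were 0.26 and 0.22, and their L3 values were 1.13 and 0.75, that of ilys-2 not passing. The ilys-3 call was lost without glp-1 ash-2 RNAi replicate 3, which brought its value to 0.39, and without WT ash-2 RNAi replicates 1 (0.93) and 2 (1.07), and ilys-2 passed without glp-1 ash-2 RNAi replicate 1 (1.18). Under EV 6 were higher and 0 lower, where 33.4% of all were higher and 22.1% lower. lys-3 read 5.30, 5.98 and 6.41 in glp-1 EV arrays, against 4.37, 4.44 and 4.53 in WT EV arrays, a difference of 1.45 ± 0.22 (adjusted p = 6.55e-05). lys-7 read 9.70, 9.99 and 9.57 in glp-1, against 8.75, 8.84 and 8.62 in WT, a difference of 1.02 ± 0.20 (adjusted p = 0.000787). Neither of these 2 genes overlapped between the genotypes. lys-8 (0.56 ± 0.08), lys-4 (0.46 ± 0.14), lys-2 (0.26 ± 0.09) and ilys-5 probe set 194255_x_at (0.26 ± 0.08) were also higher.

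Several of the small L3 EV differences rested on single arrays. Without WT EV replicate 2 the count was 3, since lys-4 (0.25), lys-2 (0.25) and 194255_x_at (0.23) did not pass. lys-4 also did not pass without glp-1 EV replicate 3 (0.38), when lys-1 did (0.24), and lys-2 did not without glp-1 EV replicate 2 (0.23) or WT EV replicate 1 (0.24). The ilys-5 probe set 173051_s_at passed without glp-1 EV replicate 1 (0.23). Of the intestine markers 9 of 11 were higher in glp-1 at L3 under EV (median 0.52). Muscle and neuron centring, which moved the median of all probe sets by −0.51, left lys-3 (0.94) and lys-7 (0.51) higher, with 2 higher and 6 lower. Under ash-2 RNAi that centring (shift of −0.49) gave 1 higher, lys-3 (0.64), and 8 lower.

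Between day 8 and L3 the lysozyme genes under EV moved in opposite directions. In glp-1 worms ilys-3 read 11.93, 12.19 and 12.42 on day 8, against 5.47, 5.44 and 5.29 at L3, a difference of 6.78 ± 0.35. lys-10 (5.84 ± 0.18), ilys-2 (5.52 ± 0.43), lys-7 (4.60 ± 0.18) and lys-8 (0.25 ± 0.10) were also higher on day 8, and ilys-5 (−1.46 to −1.56), lys-4 (−1.11 ± 0.16) and lys-2 (−0.32 ± 0.12) were lower (largest adjusted p of these 10 probe sets = 0.0302). Of the 12 probe sets 5 were higher and 5 lower, where 16.4% of all were higher and 55% lower. The lys-8 call was lost without day 8 replicates 2 (0.17) and 3 (0.19) and L3 replicates 2 (0.22) and 3 (0.23) of glp-1 EV, and the value was 0.38 without day 8 replicate 1. The lys-2 call was lost without day 8 replicate 1 (−0.20) and L3 replicate 2 (−0.29), and lys-1 passed without day 8 replicate 3 (0.29) or L3 replicate 2 (0.31).

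In WT under EV ilys-2 read 7.56 and 7.82 on day 8, against 3.98, 3.98 and 3.88 at L3, a difference of 3.74 ± 0.49. lys-7 (3.44 ± 0.20), ilys-3 (2.24 ± 0.39) and lys-10 (1.70 ± 0.20) were higher too. lys-2 read 8.86 and 8.80 on day 8, against 12.42, 12.45 and 12.51 at L3, a difference of −3.63 ± 0.13. lys-1 (−1.99 ± 0.12), lys-8 (−1.83 ± 0.11), lys-4 (−1.28 ± 0.18) and ilys-5 (−1.05 to −1.23) were lower as well (largest adjusted p of these 11 probe sets = 3.44e-05). Of the 12 probe sets 4 were higher and 7 lower, where 21.8% of all were higher and 46.7% lower.

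These age differences depend on how the 2 ages are scaled. Centring on muscle and neuron markers moved the median of all probe sets by 0.97 in glp-1 and 2.51 in WT; 8 of the 12 probe sets were then higher and 3 lower on day 8 in glp-1, and 11 were higher in WT, lys-2 alone being lower (−1.11). Median centring (shifts of 0.79 in glp-1 and 0.97 in WT) gave 8 higher and 3 lower in glp-1 and 4 higher and 3 lower in WT. Quantile normalization (shifts of 0.44 in glp-1 and 0.42 in WT) gave 8 and 4 in glp-1 and 4 and 6 in WT. lys-7, lys-10, ilys-2 and ilys-3 were higher on day 8 in both genotypes under all of these scalings.

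An offset shared by all arrays of an age cancels in the difference between genotypes, which was larger on day 8 than at L3 for 7 genes under EV. The difference on day 8 minus that at L3 was 4.54 ± 0.52 for ilys-3, 4.15 ± 0.27 for lys-10, 3.31 ± 0.17 for lys-2, 2.22 ± 0.17 for lys-1, 2.08 ± 0.15 for lys-8, 1.78 ± 0.65 for ilys-2 and 1.17 ± 0.27 for lys-7 (largest adjusted p = 0.0263). It did not pass for lys-3, lys-4 or ilys-5. At L3 under EV lys-10 (means of 3.94 in glp-1 and 3.86 in WT) and ilys-2 (4.22 and 3.95) were among the dimmest probe sets. A genotype difference in these genes could hardly show there, so their values may only restate those of day 8. ilys-3 was also dim at L3 (5.40 in glp-1 and 4.73 in WT). Over all probe sets 24.5% were called upwards and 28.2% downwards. The intestine markers had a median of 2.55 in the same test and the body wall muscle markers 1.79. Muscle and neuron centring, which shifted all probe sets by −1.54 at the median, turned lys-7 to −0.37, which did not pass, and gave 5 upwards and 4 downwards; median centring gave 7 and 1 and quantile normalization 7 and 3. The ilys-2 call was lost without day 8 glp-1 EV replicate 2 (1.54), day 8 WT EV replicate 1 (1.65) and L3 glp-1 EV replicate 1 (1.70).

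**Figure D5:**
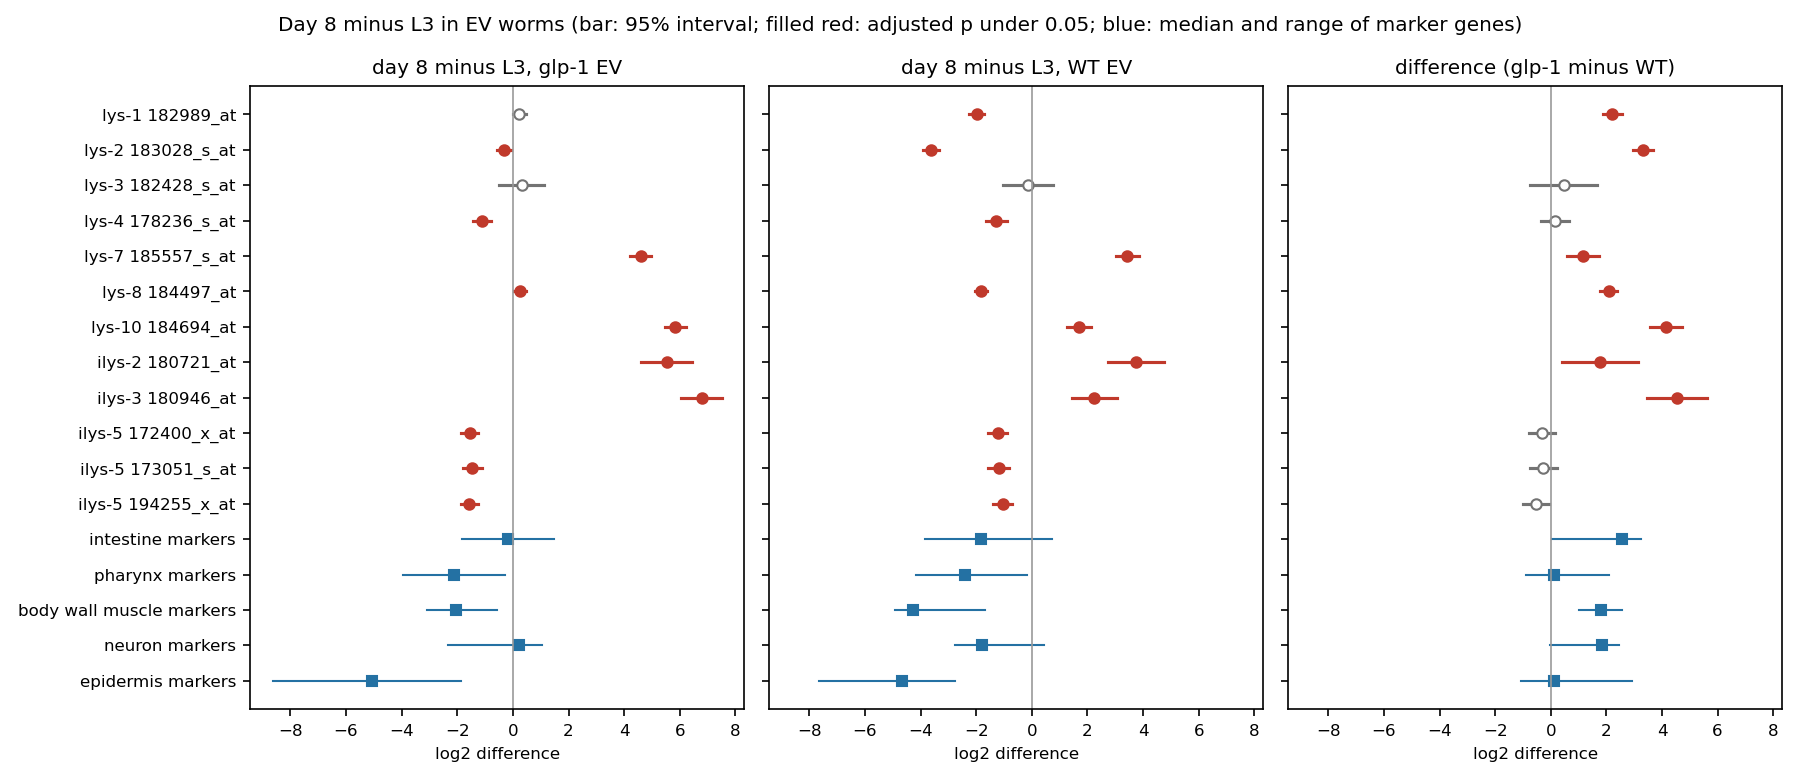
Log2 difference between day 8 and L3 under EV (x axis, day 8 minus L3) in glp-1 and in WT, and the difference of the 2 (glp-1 minus WT), for the 12 lysozyme probe sets and, in blue, the median and range of marker genes; bars are 95% intervals and filled red points have an adjusted p under 0.05. lys-7, lys-10, ilys-2 and ilys-3 are higher on day 8 in both genotypes, and lys-1, lys-2 and lys-8 are lower in WT; with muscle and neuron centring lys-1 and lys-8 are higher on day 8 in WT.

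Within an age the order of the 4 groups differed between genes. On day 8 lys-10 and ilys-3 ran glp-1 EV, glp-1 ash-2 RNAi, WT ash-2 RNAi and WT EV from high to low with no overlap between neighbours. For lys-1 the day 8 order was glp-1 EV, glp-1 ash-2 RNAi, WT EV and WT ash-2 RNAi, again with no overlap, and lys-8 had the same order with overlap between the 2 glp-1 groups. For ilys-5 (172400_x_at) the day 8 order was WT EV, glp-1 EV, glp-1 ash-2 RNAi and WT ash-2 RNAi, with overlap between the 2 EV groups and none between the others. lys-4 on day 8 ran glp-1 EV, WT EV, glp-1 ash-2 RNAi and WT ash-2 RNAi, with overlap between the last 3 neighbours. At L3 lys-10 overlapped between all neighbours in the order.

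Over the 8 group means, each age centred on its own mean, lys-1 and lys-8 had a correlation of 0.988, lys-2 and lys-8 of 0.972, and the neighbours lys-1 and lys-2 of 0.960. The neighbours ilys-2 and ilys-3 had 0.9005, and ilys-5 and lys-10 had −0.20 to −0.27. Outside the family, ranked over 11110 probe sets in the same way, the patterns most like that of lys-10 were those of the caenacin gene cnc-6 (0.989), hlh-33 (0.987) and the collagen gene col-119 (0.977). Those most like ilys-3 were K07B1.4 (0.998), F22B7.9 (0.997) and the nuclear receptor gene nhr-45 (0.997), and those most like lys-4 were F22H10.3 (0.952), R04B5.5 (0.943) and C15B12.1 (0.936). For ilys-5 they were F53A9.8 (0.959 to 0.973 over its probe sets), the aquaporin gene aqp-1 (0.949 to 0.954) and the gene ech-7 (0.936 to 0.949). Each correlation rests on 8 means, and shared regulation was not tested. For lys-1, lys-2, lys-8, lys-10 and ilys-3 those means spread most between the genotypes on day 8, a difference that many other probe sets have. Those of lys-10 also spread in day 8 WT, with 7.75 under ash-2 RNAi and 5.55 under EV.

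Of the other lysozyme genes 6 were measured (lys-5, lys-6, lys-9, ilys-1, ilys-4 and ilys-6). With ash-2 RNAi on day 8 in glp-1, 1 of the 6 rose, lys-6 (0.38 ± 0.11, adjusted p = 0.0372), and 1 fell, ilys-4 (−0.88 ± 0.19, adjusted p = 0.01), whose mean was 8.50 under ash-2 RNAi and 9.39 under EV. Over all probe sets 7.18% rose and 7.63% fell there. The lys-6 rise started from a dim mean of 3.80 under EV. On day 8 in WT and at L3 in both genotypes 0 of the 6 passed, where at most 0.891% of all probe sets passed in either direction. The genotypes' day 8 responses differed for ilys-4 (−1.20 ± 0.28, adjusted p = 0.0431). Under EV on day 8 ilys-4 was 2.82 ± 0.21 higher in glp-1 than in WT and the other 5 did not pass, where 28.3% of all probe sets were higher and 26.6% lower. The group means of those 5 genes under EV on day 8 lay between 3.60 and 4.27, near the bottom of the range, where a fall could hardly show.

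Regulators and other antibacterial genes were counted for ash-2 RNAi on day 8, where 7.18% of all probe sets rose and 7.63% fell in glp-1 and 0.577% rose and 0.891% fell in WT. Of 6 measured genes of p38 immune signalling the protein kinase gene tpa-1 fell in glp-1 (−1.04 ± 0.27, adjusted p = 0.0257) and 0 passed in WT. Of 8 genes of DBL-1 signalling 0 passed in either genotype. Of 8 transcription factors of gut, immunity and longevity the gut GATA factor elt-7 fell in glp-1 (−0.56 ± 0.10, adjusted p = 0.00384) and 0 passed in WT; daf-16 itself had 0.27 in glp-1 and −0.28 in WT, neither passing. Of 11 other antibacterial genes spp-1, a saposin-like peptide gene, fell in glp-1 (−1.22 ± 0.13) and in WT (−1.71 ± 0.15), as ilys-5 did. In the same list spp-12 rose in both genotypes (4.10 in glp-1 and 4.83 in WT), and the lectin gene clec-60 rose in glp-1 (1.01 ± 0.19).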

How the data were processed

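Whole-worm RNA of 23 samples was read on 1 array each. The authors deposited 1 log2 intensity for each probe set and array, computed by RMA (submitters' processing notes, with no version). Precision is limited by the number of arrays. All 22548 probe sets were used, with 6 empty cells in 5 of them and no filter. Names came from the platform annotation, updated through the reference gene table (20701 probe sets); 20766 name 1 gene, 887 several and 895 none.

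The fits used limma 3.58.1 (R 4.3.3), with a mean per group, default eBayes and two-sided tests. Within-age fits used the 12 L3 or 11 day 8 arrays; contrasts between ages used all 23. The Benjamini-Hochberg adjustment ran over every probe set, and a change passes (is called, rose or fell) at an adjusted p under 0.05. The interactions are the change in glp-1 minus that in WT, and day 8 minus L3. Every member is named, with lists of other lysozyme genes, p38 and DBL-1 signalling, transcription factors, other antibacterial genes and tissue markers (brightest probe set per gene). The members and lists were chosen with earlier results of these data known. For each gene with a called ash-2 change, the 3 probe sets of 1 gene with the highest Pearson correlation over the 8 group means, centred within each age, were named, among those with an SD of at least 0.3. No sequence was used here, so a planned promoter motif search was not run.

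Same-numbered ash-2 RNAi and EV arrays deviated together in L3 WT (r from 0.142 to 0.487), so their numbers were taken to pair them there. In the other comparisons not every pair exceeded 0.1. The main fits, in L3 WT too, did not use replicate numbers. The fit of the L3 WT arrays blocked by them, in which lys-7 passed, was an alternative. On simulated data, 25, 47, 50 and 50 of 50 probe sets changed by 0.5, 1, 2 and 4 (log2) were recovered for ash-2 RNAi in L3 WT (22547 probe sets, with 2 false calls over all sizes), and 7, 35, 48 and 50 in day 8 WT (22544 probe sets, with 16 false calls over all sizes). Alternatives were quantile normalization, centring on the array median or on muscle and neuron markers, leaving out the dimmest 40 percent or the shared probe sets, trend and robust settings, a replicate block, all 23 arrays or only the compared groups in a fit, and the omission of single arrays.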

Additional observations from a re-analysis of the deposited data

Results flagged for a closer look

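These responses differed between groups by a test of the difference itself. The change with ash-2 RNAi on day 8 was lower in glp-1 than in WT for lys-10 (−2.94) and ilys-3 (−2.51).

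The change with ash-2 RNAi on day 8 minus that at L3 in glp-1 was −0.93 for lys-10, −2.11 for ilys-2, −2.48 for ilys-3 and −1.90, −2.01 and −1.89 for ilys-5. lys-10 and ilys-2 were near the bottom of the range at L3, where a fall could hardly show. ilys-3 was also dim in L3 glp-1 EV worms, where a fall of its day 8 size could hardly show. The lys-10 call was lost without day 8 ash-2 RNAi replicate 3 (−0.71), day 8 EV replicates 1 (−0.83) and 2 (−0.79), L3 ash-2 RNAi replicate 3 (−0.86) and L3 EV replicate 1 (−0.85), all of glp-1. That of ilys-2 was lost without day 8 ash-2 RNAi replicate 2 (−1.57), day 8 EV replicate 2 (−1.87), L3 ash-2 RNAi replicate 3 (−1.46) and L3 EV replicates 1 (−2.03) and 2 (−2.08). lys-7 passed without L3 ash-2 RNAi replicate 1 (−0.83), and ilys-2 passed in the day 8 genotype difference without glp-1 ash-2 RNAi replicate 1 (−2.34).

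In WT the same difference between ages was 0.73 for lys-2, 2.07 for lys-10 and −2.56, −2.71 and −2.67 for ilys-5. The lys-2 call was lost without day 8 ash-2 RNAi replicates 1 (0.66) and 2 (0.71), day 8 EV replicates 1 (0.77) and 2 (0.70), L3 ash-2 RNAi replicates 1 (0.75) and 2 (0.67) and L3 EV replicates 1, 2 and 3 (0.75, 0.74 and 0.71).

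Under EV the genotype difference (glp-1 minus WT) was larger on day 8 than at L3 by 2.22 for lys-1, 3.31 for lys-2, 1.17 for lys-7, 2.08 for lys-8, 4.15 for lys-10, 1.78 for ilys-2 and 4.54 for ilys-3. At L3 lys-10 and ilys-2 were near the bottom of the range in both genotypes, where a genotype difference could hardly show, and ilys-3 was dim. The ilys-5 probe set 194255_x_at passed downwards without day 8 glp-1 EV replicates 2 (−0.63) and 3 (−0.67).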

How the results depend on the processing

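Of 1119 values of called changes under the alternatives, 1032 kept direction and call, 68 lost the call and 19 turned; of 1641 values of changes not called, 83 passed. The falls of ilys-5 on day 8 in both genotypes, that of ilys-3 in glp-1 and the rise of lys-10 in WT kept their direction and call under every alternative run (ilys-5 has no value without shared probe sets). For ash-2 RNAi on day 8 in glp-1 the count of called probe sets was 10 with all 23 arrays in 1 fit, 1 (ilys-3) without shared probe sets and 5 to 8 with 1 array left out. On day 8 in WT it was 1 without shared probe sets and 4 throughout with 1 array left out. At L3 in glp-1 it was 1 with median centring, 2 with trend and robust settings and 0 to 1 with 1 array left out, and at L3 in WT it was 1 with the replicate block on those 6 arrays. The replicate block in the planned fits gave 6 on day 8 in glp-1 (lys-10 added, −0.74), 4 on day 8 in WT and 0 at L3 in both genotypes, and moved no count by over 1.5 times. With 1 array left out the counts ran from 6 to 8 (day 8 ash-2 RNAi), 8 to 9 (day 8 EV), 3 to 5 (L3 ash-2 RNAi) and 3 to 7 (L3 EV) for glp-1 against WT, 9 to 10 in glp-1 and 11 throughout in WT for day 8 against L3, 2 to 3 (day 8) and 0 (L3) for RNAi by genotype, 4 to 7 (glp-1) and 4 to 5 (WT) for RNAi by age, and 6 to 8 for genotype by age.

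Without shared probe sets 5 probe sets remain, and by that the counts were 4 on day 8 under ash-2 RNAi, 5 on day 8 under EV, 2 at L3 under ash-2 RNAi and 1 at L3 under EV for glp-1 against WT, 4 in glp-1 and 5 in WT for day 8 against L3, and 3 in glp-1 and 1 in WT for RNAi by age. Muscle and neuron centring gave 9 for glp-1 against WT at L3 under ash-2 RNAi, and median centring gave 7 for day 8 against L3 in WT. The values that turned did so with scaling. With muscle and neuron centring glp-1 against WT was −0.0019 (ilys-2), −0.13 (lys-3) and −1.43 (lys-4) on day 8 under EV, −0.37 (lys-10) and −1.05 (ilys-5, 173051_s_at) on day 8 under ash-2 RNAi, −0.25 (lys-2), −0.051 (lys-4) and −0.25 (ilys-5, 194255_x_at) at L3 under EV and −0.21 (lys-8) at L3 under ash-2 RNAi. With it day 8 against L3 was 0.52 (lys-1), 0.68 (lys-8), 1.24 (lys-4) and 1.28, 1.32 and 1.47 (ilys-5) in WT and 0.65 (lys-2) in glp-1, and genotype by age was −0.37 (lys-7). Day 8 against L3 for lys-2 in glp-1 was 0.47 with median centring and 0.35 with quantile normalization. Why the scalings differ was not tested. The ages were deposited on separate scales, 5 genes rest on shared probe sets, and lys-10, ilys-2, lys-3 and ilys-3 are dim at L3, where small changes cannot be seen.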

Other observations

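Genes around the lysozymes in worm immunity were also set against the germline mutant. Over all probe sets 28.3% were higher and 26.6% lower in glp-1 than in WT under EV on day 8. In that comparison 7 of 8 measured genes of DBL-1 signalling were higher, among them the receptor gene sma-6 (3.24 ± 0.27) and the Smad gene sma-3 (2.33 ± 0.17), and 0 were lower. Of 8 transcription factors 6 were higher, among them elt-2 (3.36 ± 0.18) and pqm-1 (3.20 ± 0.17), and daf-16 (0.32 ± 0.19, adjusted p = 0.173) was not among them. Of 6 genes of p38 immune signalling 3 were higher, the kinase gene sek-1 (1.21 ± 0.18), the phosphatase gene vhp-1 (1.54 ± 0.16) and tpa-1 (2.35 ± 0.30), and pmk-1 (0.34 ± 0.17, adjusted p = 0.125) did not pass. Of 11 other antibacterial genes 7 were higher and 0 lower, among them spp-12 (5.37 ± 0.54), abf-2 (3.30 ± 0.38) and spp-1 (3.17 ± 0.15). Centring on muscle and neuron markers moved the median of all probe sets by −2.05 in this comparison. That shift was larger in size than the differences of sek-1 and vhp-1 and close to that of sma-3. Whether these genes differ beyond tissue proportions was not tested.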
